A study of Homo sapiens with 36 samples.

Results

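The 9 genes described here are 7 kinases of the Src family (SRC, YES1, FYN, LYN, LCK, FGR and FRK), their inhibitory kinase CSK, and ESR1, which encodes estrogen receptor alpha. They were taken by name, not by their values, from the 60725 Ensembl genes measured in 36 RNA-seq libraries of 18 groups, with 2 libraries in each group. Of these libraries, 20 come from MCF-10A ER-Src cells, which are non-transformed human mammary epithelial cells that carry a fusion of v-Src, the viral oncoprotein, with the ligand binding domain of the estrogen receptor. The other 16 come from MDA-MB-231 cells, a line from a triple-negative breast cancer that lacks the estrogen receptor.

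The ER-Src cells received a control siRNA (Ctrli) or siRNA against YAP, TAZ, STAT3 or JUNB (YAPi, TAZi, STAT3i and JUNBi), and each of these 5 was measured in ethanol (ETH, labelled non-transformed) and in tamoxifen (TAM, labelled transformed). The fusion is present in every ER-Src group, controls included, so no ER-Src library shows these genes without it. The treatment text names tamoxifen together with AZD0530, which is saracatinib, an inhibitor of Src family kinases, and does not say which libraries received it. MDA-MB-231 cells received no TAM and form 2 sets, the first with Ctrli, YAPi, TAZi, YAPi_TAZi (both siRNAs) and TEADi, and the second with its own Ctrli, JUNBi and STAT3i. Nothing in the labels says that the 2 libraries of a group came from separate cultures, so the p-values measure the spread between libraries, which may be technical.

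Src family kinases are membrane-anchored tyrosine kinases that pass signals from integrins and growth factor receptors to the cytoskeleton and the nucleus. CSK holds them inactive by phosphorylating a tyrosine in their tail, and v-Src lacks that tail and escapes this control. In ER-Src cells the receptor domain keeps the kinase inactive until tamoxifen binds, so that activation needs no new transcription of the fusion.

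Per the labels and the methods, all libraries were made from total RNA, but they differed in RNA content. Abundant RNAs without a poly(A) tail took at most 0.0112% of the counts in the set 1 controls and set 2. In the other libraries they took at least 8.71%. Summed expected counts, which are the reads that RSEM assigns to genes, ran from 6419720 to 19161700 in ER-Src cells. In MDA-MB-231 cells the set 1 knockdown libraries held 1411304 to 2784605 counts and the set 1 controls 13456784 and 13534560. Expression of the targets YAP1, WWTR1 (TAZ), STAT3 and JUNB was lower in each knockdown library than in its controls, in 14 of 14 comparisons. For JUNB with JUNBi in ETH the adjusted p in DESeq2 was 0.0637. TEAD1, TEAD2, TEAD3 and TEAD4, not counted in these, were also lower in each TEADi library than in its controls. The log2 fold change of TEAD3 was -1.62 with TEADi, but also -1.53 with YAPi, -1.32 with TAZi and -1.24 with YAPi_TAZi. Its lower level is therefore no check of the TEADi label. TEAD1, TEAD2 and TEAD4 had their lowest log2 fold changes of the set with TEADi (-0.82, -4.30 and -6.34). Basal epithelial markers summed to 1794 to 3626 TPM, a level corrected for transcript length, in the ER-Src libraries. Of 9 haematopoietic markers, 1 had a median of at least 1 TPM there, namely CD68, while PTPRC had at most 1 count.

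ESR1 differed most in level between the 2 lines. It reached 88.1 to 206 TPM in the 20 ER-Src libraries, from 1433 to 4841 expected counts each. In the 16 MDA-MB-231 libraries it had 0 to 4 counts each, 22 in all, and 5 of them had none. Pooled over libraries this is 256 CPM (counts scaled by the depth of the libraries) in ER-Src and 0.217 CPM in MDA-MB-231 cells, a ratio of 1181. In the 8 set 1 knockdown libraries, where 7 abundant RNAs without a poly(A) tail took 8.71% to 11.8% of the counts beside 9.43% to 11.7% in ER-Src, ESR1 had 0 to 4 counts as well. The lines were in separate library sets, so the ratio is a description without a test, and the share of ESR1 reads that came from the fusion was not tested.

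The length of ESR1 could be read well only in ER-Src cells. RSEM weights the length of a gene over the isoforms that take its reads, and the result for ESR1 was 748 to 1479 bases in ER-Src cells, with a median of 788. In the set 1 controls, from 1 and 2 counts, it was 5860 and 6357 bases, and in the set 1 knockdowns, from 0 to 4 counts, it ran from 323 to 6357 bases, a range that includes the ER-Src values. Of 13 ESR1 transcripts in the files, 12 were matched to an annotation, and these span 219 to 6466 bases, with 8 of them under 1500. SRC was better covered in both lines, and its weighted length was 805 to 1381 bases in ER-Src, 3779 and 3930 in the set 1 controls, and 3195 to 3504 in set 2. Its median length in ER-Src was 0.275 times that in the set 1 controls, where the median gene had a ratio of 0.938 and 0.0254% of 11832 genes lay below SRC. The ratio of SRC was 0.462 to the set 1 knockdowns, whose libraries resemble those of ER-Src in RNA content. Reads from v-Src were not told apart from reads of SRC.

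A run of exons from a short annotated ESR1 transcript shows what such reads could cover. The transcript ENST00000415488.1 is 323 bases long, and 2 consecutive exons of it lie on the plus strand at chr6:152011656-152011794 (139 bases, capitals) and chr6:152060991-152061059 (69 bases, lower case) in GRCh38. They encode a stretch of the ligand binding domain, the part of the receptor that the fusion holds, and 5 annotated transcripts contain this run.
ESR1 exons: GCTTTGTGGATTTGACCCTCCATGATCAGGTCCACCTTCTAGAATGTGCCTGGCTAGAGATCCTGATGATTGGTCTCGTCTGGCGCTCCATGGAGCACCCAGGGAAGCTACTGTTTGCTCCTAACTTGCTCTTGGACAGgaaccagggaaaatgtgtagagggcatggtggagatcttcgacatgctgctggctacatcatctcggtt

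**Figure D1:**
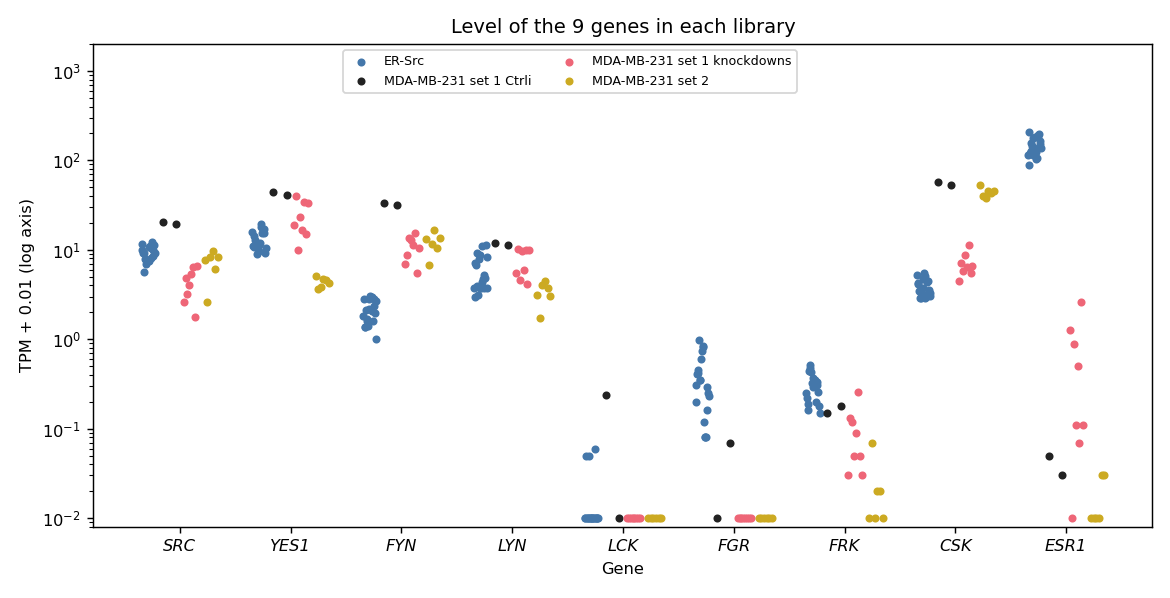
TPM of each of the 9 genes in every library, with 0.01 added so that values of 0 can be drawn on the log axis, coloured by cell line and library set. ESR1 lies between 88.1 and 206 TPM in ER-Src cells and at 2.57 TPM or less in MDA-MB-231 cells, and LCK at 0.23 TPM or less throughout.

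Among the kinases YES1 and SRC, the broadly expressed members, had the highest TPM in ER-Src cells in ETH. In TAM the mean TPM of LYN was above that of SRC with YAPi (8.53 and 7.42), TAZi (9.825 and 7.515) and JUNBi (9.79 and 8.875). It was below that of SRC with Ctrli (6.915 and 7.795) and STAT3i (4.97 and 10.22). The TPM of SRC depends on its weighted length, which was 805 to 1381 bases in ER-Src. In mean counts scaled for library depth, LYN in TAM was above SRC also with Ctrli (624 and 268) and STAT3i (317 and 241). YES1 ran from 8.89 to 19.7 TPM and SRC from 5.64 to 12.3 TPM. LYN, known best from B cells and also found in epithelia, ran from 2.95 to 11.2 TPM, and FYN, the third broadly expressed member, from 1 to 3.03 TPM. The rare members were FGR, a myeloid kinase, at 0.07 to 0.97 TPM, and FRK, an epithelial relative whose single transcript is 13230 bases long, at 0.14 to 0.51 TPM. LCK, the T cell kinase, never exceeded 1 count and was at 0 in 17 of 20 ER-Src libraries, and it is not described further. CSK stood at 2.85 to 5.47 TPM in ER-Src cells. YES1 counts were not whole numbers in some libraries, so part of its reads were shared with other loci.

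The kinases also took different shares of their summed TPM in the 2 lines. In ER-Src cells the median shares were 43.0% for YES1, 30.9% for SRC, 14.3% for LYN and 6.87% for FYN. The share of SRC depends on its weighted length, which was 805 to 1381 bases in ER-Src and 3195 to 3504 in set 2. Reads from the fusion may be part of it. The set 1 controls of MDA-MB-231 had 39.8% YES1, 30.6% FYN, 18.5% SRC and 10.8% LYN, and set 2 had 45.6% FYN, 26.8% SRC, 16.0% YES1 and 12.03% LYN. Thus FYN was a small part of the total in ER-Src cells and a large one in MDA-MB-231 cells, while the place of YES1 differed between the MDA-MB-231 sets themselves. The summed level was 24.1 to 37.6 TPM in ER-Src, 103 to 111 TPM in the set 1 controls, 26.4 to 65.97 TPM in the set 1 knockdowns and 14.7 to 35.3 TPM in set 2. The set 1 controls and set 2 differed in this sum although both held few RNAs without a poly(A) tail, and levels set side by side across library sets are a description with no test.

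**Figure D2:**
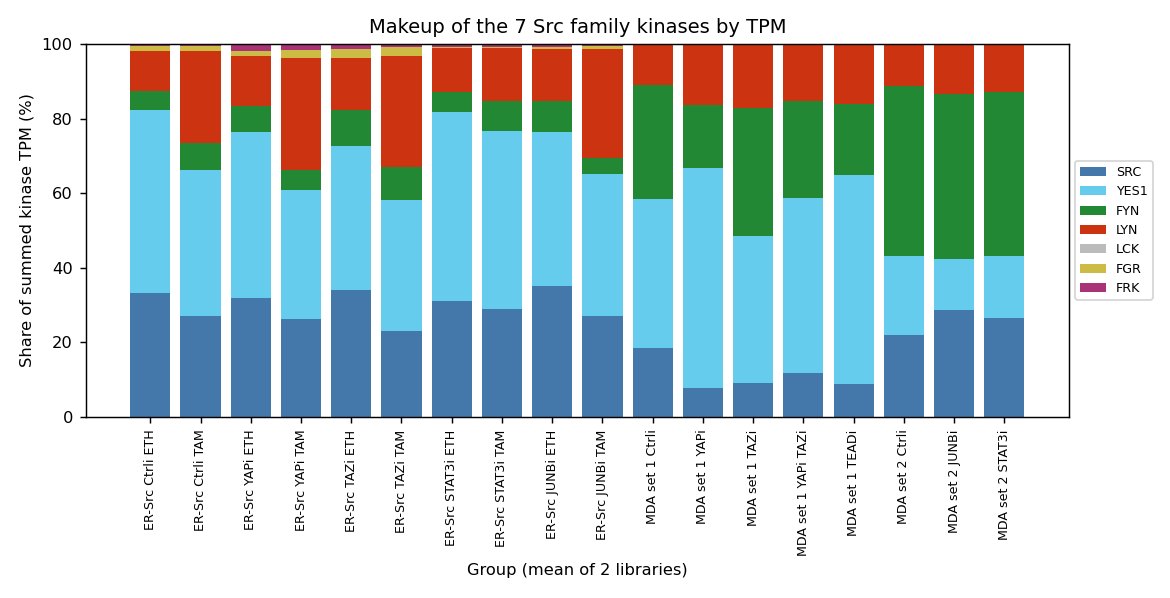
Share of each kinase in the summed TPM of the 7 Src family kinases, in percent, as the mean of the 2 libraries of each group. In ER-Src cells the share of LYN is larger in TAM than in ETH for each siRNA, least so with STAT3i (11.8% and 14.1%), and FYN takes a larger share in MDA-MB-231 cells.

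LYN, a kinase of immune and epithelial signalling, was the 1 gene of the 9 whose RNA was called higher in TAM. In bulk libraries a change in the make-up of the cells and a change of RNA in each cell cannot be told apart. Normalized counts, which are counts scaled for library depth, were 250 and 220 in the Ctrli ETH libraries and 633 and 614 in the Ctrli TAM libraries. With YAPi they were 285 and 270 in ETH and 798 and 726 in TAM. The TAM libraries were thus well above those in ETH, with no overlap. With TAZi the values were 272 and 269 in ETH and 725 and 862 in TAM, and with JUNBi 281 and 283 in ETH and 805 and 724 in TAM. With STAT3i they were 258 and 253 in ETH and 309 and 325 in TAM. LYN was therefore higher in TAM in 10 of 10 pairs of libraries, by a small margin with STAT3i and by a large one with the other siRNAs.

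Over all 5 siRNAs the fold change of LYN in TAM was 2.36 (log2 1.24, SE 0.12, adjusted p = 5.68e-22, n = 10 and 10, DESeq2 with Benjamini-Hochberg adjustment over all genes tested). LYN was the only call among the 8 of the 9 genes with an adjusted p at the threshold of 0.01, and 12.6% of all genes tested were called in this comparison. Within single siRNAs the log2 fold change was 1.42 in Ctrli (adjusted p = 1.7e-10), 1.45 in YAPi (adjusted p = 2.01e-14), 1.55 in TAZi (adjusted p = 2.46e-14) and 1.45 in JUNBi (adjusted p = 1.17e-05). It was again the only call of 8 in each of these, where the test called 6.21% of genes with Ctrli, 4.5% with YAPi, 7.13% with TAZi and 2.13% with JUNBi. The JUNBi call was lost with edgeR (adjusted p = 0.0309), without JUNBi TAM replicate 1 (adjusted p = 0.169) and without JUNBi TAM replicate 2 (adjusted p = 0.0696).

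In STAT3i cells the TAM change of LYN was 0.31 on the log2 scale, with a 95% interval of -0.20 to 0.81, and DESeq2 called 0 of the 7 genes with an adjusted p there, where 0.793% of all genes were called. None of the genes had an unadjusted p under 0.05 and edgeR called 0 as well. The direct comparison in TAM showed LYN lower in STAT3i than in Ctrli, with a fold change of 0.515 (log2 -0.96, SE 0.19, adjusted p = 2.34e-05), as 1 call of 7 beside 8.22% of all genes. The change kept a size of -0.97 to -0.92 when each of the 4 libraries was left out, but the adjusted p was then 0.0587 and 0.0224 without Ctrli TAM replicates 1 and 2, and 0.0405 and 0.0122 without STAT3i TAM replicates 1 and 2. The difference between length and effective length was 49 bases in STAT3i and JUNBi libraries and 49.5 in most other ER-Src libraries, and with JUNBi as the reference the log2 fold change was -1.26 (adjusted p = 4.18e-10).

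Whether the TAM response of LYN differed between STAT3i and Ctrli was tested by an interaction term. It was -1.11 on the log2 scale (SE 0.29, 95% interval -1.68 to -0.53), with an adjusted p of 0.0112, which misses 0.01. DESeq2 thus called 0 of 8 genes, beside 1.34% of all genes, with 1 at an unadjusted p under 0.05, and edgeR called 0. The term passed with the replicate block (adjusted p = 0.00231) and with a mean count of at least 10 (adjusted p = 0.0059), at nearly the same size. It did not pass with edgeR (adjusted p = 0.0227), TMM size factors (adjusted p = 0.0172) or effective length offsets (adjusted p = 0.0536), nor without any 1 of the 8 libraries (log2 -1.20 to -1.01, adjusted p = 0.0206 to 0.129).

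**Figure D3:**
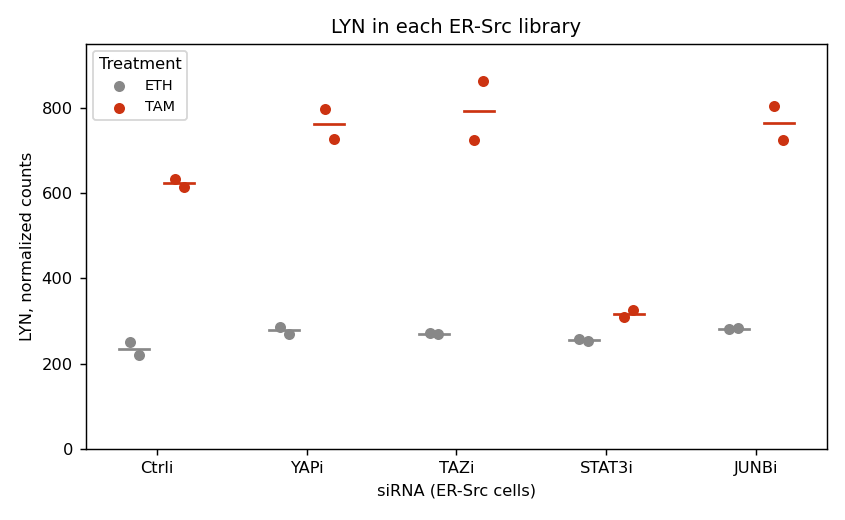
Normalized counts of LYN in each of the 20 ER-Src libraries, by siRNA and treatment, with lines at the group means. The TAM libraries with Ctrli, YAPi, TAZi and JUNBi lie between 614 and 862, and those with STAT3i at 309 and 325, close to the ETH libraries at 220 to 285.

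The share of LYN in the summed TPM of the kinases showed the same order. It was 10.7% in Ctrli ETH and 24.8% in Ctrli TAM, 13.2% and 30.02% with YAPi, and 13.9% and 29.8% with TAZi. With JUNBi it was 13.9% and 29.1%, but with STAT3i 11.8% and 14.1%. LYN is abundant in blood cells, so markers of these were measured in the same libraries. The 9 markers summed to 1.9 to 11.6 TPM in ETH and, in TAM, to 10.7 to 13.8 TPM with Ctrli, 16.8 to 18.3 TPM with YAPi, 10.8 to 13.6 TPM with TAZi, 6.89 to 7.22 TPM with STAT3i and 3.72 to 3.75 TPM with JUNBi. Nearly all of this was CD68, which rose in TAM (log2 1.10), fell by 1.26 on the log2 scale with STAT3i in TAM and by 2.35 with JUNBi in TAM, where LYN was 0.32 with a 95% interval of -0.03 to 0.66. Their part in the LYN result was not tested. None of the other markers exceeded 9 counts in ER-Src cells. Of 7 basal markers 2 were called higher and 2 lower in TAM across siRNAs, beside 12.6% of all genes. KRT6A (log2 1.42) and CDH3 (log2 1.18) were higher, and TP63 (log2 -0.48) was among the lower.

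No other member passed the test in TAM. SRC had a log2 fold change of -0.15 across the siRNAs (95% interval -0.35 to 0.05), with normalized counts of 208 to 338 in ETH and 199 to 290 in TAM, and it was higher in TAM in 2 of 10 pairs. YES1 changed by 0.06 (interval -0.10 to 0.22), FYN by 0.07 (interval -0.19 to 0.32) and CSK by -0.06 (interval -0.32 to 0.21). These intervals leave room for changes of about the size of their limits in either direction. FRK changed by 0.08 (interval -0.17 to 0.33). FGR (0.35, interval -0.17 to 0.87) was less precisely measured. ESR1 had -0.19 (interval -0.36 to -0.02, adjusted p = 0.112), and the libraries of the 2 treatments overlapped. Without Ctrli TAM replicate 1 it was -0.25 and was called (adjusted p = 0.00464).

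Knockdown of YAP was accompanied by more FRK RNA in both conditions. FRK, also called Rak, is a tyrosine kinase of epithelial cells known to restrain growth. In TAM its normalized counts were 85.3 and 63.4 with Ctrli and 183 and 179 with YAPi, and in ETH they were 81.4 and 73.8 with Ctrli and 147 and 200 with YAPi. YAPi libraries thus had the highest FRK values in each condition, without overlap with the controls.

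The fold change was 2.42 in TAM (log2 1.28, SE 0.35, adjusted p = 0.00316), the 1 call of 8 genes beside 10.7% of all genes, and 2.21 in ETH (log2 1.14, SE 0.33, adjusted p = 0.00579), 1 of 2 calls of 8 beside 11.6% of all genes. Both calls were lost with the replicate block (adjusted p = 0.057 and 0.0681). In TAM the adjusted p was 0.0739 and 0.186 without Ctrli replicates 1 and 2, and 0.19 and 0.307 without YAPi replicates 1 and 2. In ETH it was 0.154 and 0.214 without Ctrli replicates 1 and 2, and 0.0661 and 0.335 without YAPi replicates 1 and 2. The level stays low, at 0.51 TPM or less, since the counts are spread over a long transcript. The TAZi values were 109 and 124 in TAM and 104 and 122 in ETH (log2 0.64 and 0.53), between those of Ctrli and YAPi, and did not pass.

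FRK lies on the minus strand at chr6:115931149-116060891. The 250 bases before its start, at chr6:116060892-116061141 in GRCh38.p14 from RefSeq and 41.6% G and C, are shown because the FRK calls recur in both conditions.
FRK upstream: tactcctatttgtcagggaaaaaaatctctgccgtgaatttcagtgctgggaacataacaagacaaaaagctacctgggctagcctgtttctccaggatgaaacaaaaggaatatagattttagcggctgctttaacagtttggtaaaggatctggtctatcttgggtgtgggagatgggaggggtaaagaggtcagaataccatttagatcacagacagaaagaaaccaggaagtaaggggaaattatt

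Motifs of the factors knocked down were looked for, on both strands, in RefSeq windows of 300 bases from 250 before to 50 after each start. Of the 9 genes 7 had a window, with 17 of 35116 windows. SRC and LYN had none and were not searched. The AP-1 motif TGANTCA, which JUNB binds with its partners, is in 7.71% of all windows, the TEAD motif GGAATG in 14% and the STAT3 motif TTCNNNGAA in 7.66%, and STAT3 matches read the same on both strands. FRK has none of these letters in its window, which says nothing of the factors themselves. The only matches were in ESR1, where 1 of 6 windows held the TEAD motif at 2 places, each as its reverse complement CATTCC, and 2 windows held the STAT3 motif once each. Matches are in capitals in the plus-strand sequences around them.
ESR1 TEAD, chr6:151805650-151805677: cgaatccctgcCATTCCacgcacaaaca
ESR1 TEAD, chr6:151805723-151805750: acatgcgagcaCATTCCttccttccttc
ESR1 STAT3, chr6:151807505-151807535: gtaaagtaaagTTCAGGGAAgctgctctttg
ESR1 STAT3, chr6:151808888-151808918: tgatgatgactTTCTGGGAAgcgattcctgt

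**Figure D4:**
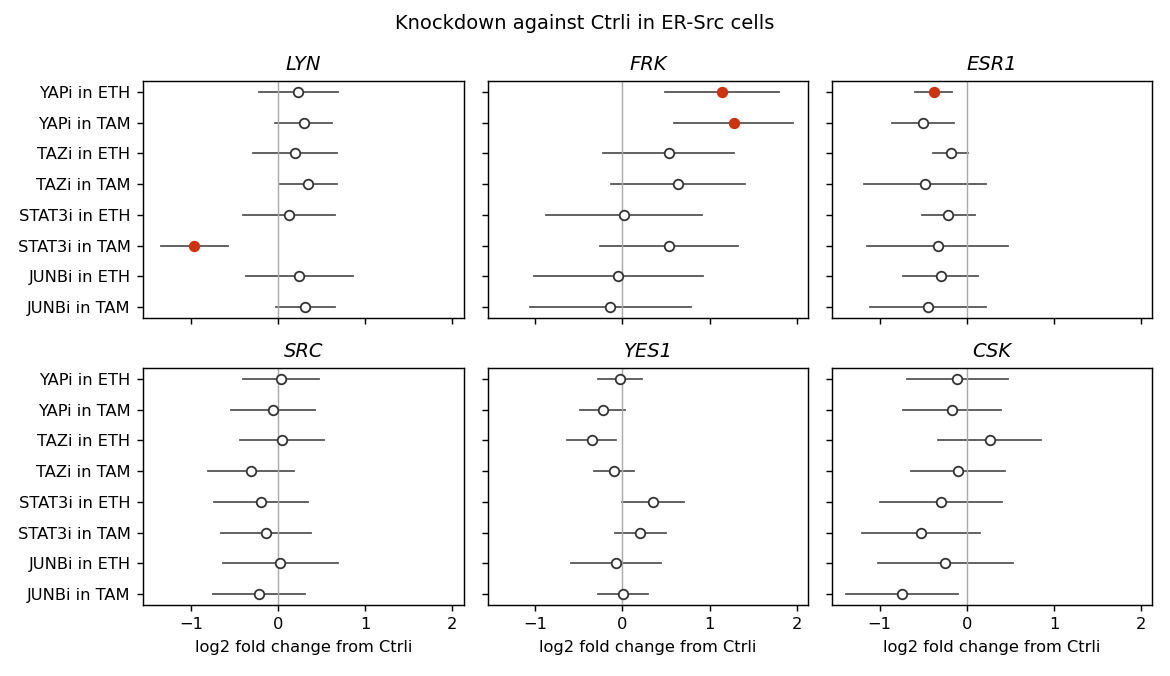
Log2 fold change of LYN, FRK, ESR1, SRC, YES1 and CSK against Ctrli for each siRNA in ER-Src cells, in ETH and in TAM, with lines for 95% intervals and filled points for calls at an adjusted p under 0.01. FRK is filled for YAPi in both conditions, ESR1 for YAPi in ETH and LYN, at -0.96, for STAT3i in TAM, and no point of SRC, YES1 or CSK is filled.

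ESR1 RNA in the ER-Src cells was the second call of YAPi in ETH. Normalized counts were 3965 and 3836 with Ctrli and 2861 and 3167 with YAPi, a log2 fold change of -0.38 (SE 0.11, adjusted p = 0.00568). The deposited lengths turn this result around. In Ctrli ETH the weighted length of ESR1 was 1382 and 1479 bases, against 1291 and 938 in STAT3i replicate 1 in ETH and TAM and 748 to 805 in the other ER-Src libraries, and the TPM of ESR1 was 115 and 88.1 with Ctrli and 157 and 146 with YAPi. With the effective lengths as offsets the log2 fold change was 0.73 (adjusted p = 1.94e-07), and that of TAZi in ETH was 0.85 (adjusted p = 6.21e-10) in place of -0.19.

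The call rested on every library it used: the adjusted p was 0.349 and 0.235 without Ctrli ETH replicates 1 and 2, and 0.149 and 0.0183 without YAPi ETH replicates 1 and 2. It was also lost with edgeR (adjusted p = 0.0237), with the replicate block (adjusted p = 0.0225) and with all other siRNAs as the reference (adjusted p = 0.449). In all 8 knockdown comparisons of ER-Src cells ESR1 had a negative log2 fold change, from -0.50 to -0.19, but the 4 siRNAs in each condition share their control libraries. The Ctrli TAM values were 4638 and 2933, and without the lower, replicate 2, the changes in TAM were called at -0.78 for YAPi, -0.77 for TAZi and -0.71 for JUNBi.

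**Figure D5:**
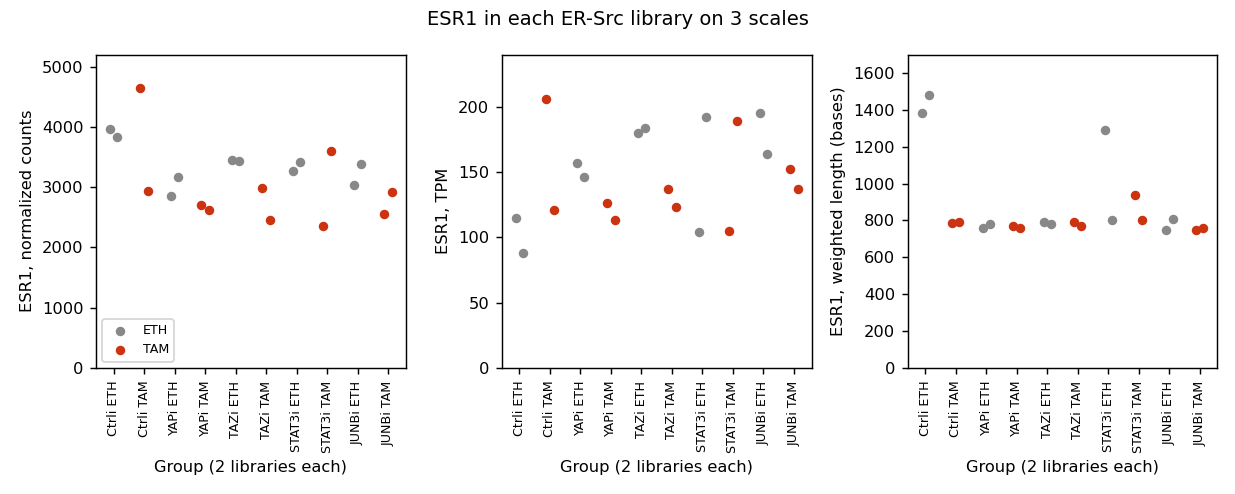
ESR1 in the 20 ER-Src libraries, as normalized counts (left), TPM (middle) and weighted length in bases (right), 1 point per library, ETH in grey and TAM in red. The Ctrli ETH libraries have the greatest lengths, 1382 and 1479 bases, with counts of 3965 and 3836 and TPM of 115 and 88.1.

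The remaining knockdowns in ER-Src cells gave no calls among the 9 genes. With TAZi DESeq2 called 0 of 8 in TAM (beside 3.42% of all genes) and 0 of 8 in ETH (beside 5.24%), with 1 and 2 at an unadjusted p under 0.05 and 0 with edgeR. In ETH these 2 were FYN, at 0.93 on the log2 scale (95% interval 0.11 to 1.76), and YES1, at -0.35 (interval -0.63 to -0.07). FYN counts were 51.9 and 54.2 with Ctrli and 103 and 101 with TAZi, which do not overlap. With STAT3i in ETH DESeq2 called 0 of 8 beside 0.189% of genes, 0 had an unadjusted p under 0.05, and LYN was 0.13 (interval -0.40 to 0.66). With JUNBi it called 0 of 7 in TAM beside 6.9% of genes, with 1 at an unadjusted p under 0.05, and 0 of 8 in ETH beside 2.8%, with 0. edgeR called 0 in each of these 3 comparisons.

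The gene at an unadjusted p under 0.05 with JUNBi in TAM was CSK, with normalized counts of 191 and 184 in Ctrli and 97.1 and 124 in JUNBi (log2 -0.74, interval -1.38 to -0.10, adjusted p = 0.125). FGR, a kinase of neutrophils and macrophages, had the widest range of group means in ER-Src cells. Its mean count was 40.2 with TAZi in TAM and 2.83 with STAT3i in TAM, and no comparison called it. The other interaction terms gave 0 calls of 8 with YAPi (beside 0.498% of genes), 0 of 2 with TAZi (beside 1.6%) and 0 of 8 with JUNBi (beside 0.288%), with 0 at an unadjusted p under 0.05 and 0 with edgeR in each.

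Ordered by mean normalized count over the 10 ER-Src groups, neighbouring groups of SRC overlapped in all 9 steps, which does not cover groups further apart. LYN and FYN had no overlap in 5 of 9 steps, FGR in 4, YES1 and FRK in 2, and CSK and ESR1 in 1. No such count was made over all genes, so these steps are a description without a background. The highest group of LYN was TAZi in TAM and the lowest Ctrli in ETH, 3.37-fold apart. For SRC the same ratio was 1.30 and for YES1 1.61.

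In MDA-MB-231 cells the set 1 knockdowns showed lower CSK and SRC with each of the 4 siRNAs and higher YES1 with 3 of them. CSK had normalized counts of 208 and 191 in the controls and 43.2 to 66.4 in the 8 knockdown libraries, and SRC had 130 and 133 in the controls and 37.0 to 73.6 in the knockdowns. The knockdown libraries did not overlap with the controls for either gene. CSK changed by -1.98 with YAPi, -1.95 with TAZi, -2.02 with YAPi_TAZi and -2.06 with TEADi on the log2 scale, and SRC by -1.66, -1.78, -1.36 and -1.10 in the same order. YES1, with 315 and 294 in the controls, had 577 and 711 with YAPi (log2 1.06), 445 and 598 with YAPi_TAZi (log2 0.75) and 485 and 594 with TEADi (log2 0.80). LYN was called with TAZi (log2 0.61) and YAPi_TAZi (log2 0.68).

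The calls were 3 of 6 genes with YAPi, 3 of 7 with TAZi, 4 of 7 with YAPi_TAZi and 3 of 7 with TEADi, beside 24.4%, 32.8%, 35.6% and 27.5% of all genes. The control libraries of this set differ from its knockdown libraries in kind: 7 abundant RNAs that lack a poly(A) tail took 0.00278% and 0.00407% of the control counts and 8.71% to 11.8% of the knockdown counts. Library type and knockdown therefore cannot be told apart in these comparisons. The knockdown libraries of a group also differed from each other. Their difference between length and effective length was 48 bases in each replicate 1 and 74.56 or 74.57 in each replicate 2. In the controls it was 75. Against the other knockdowns of the set, with the replicate block, 0 of the genes were called with any of the 4 siRNAs, CSK with TAZi was 0.09, SRC with YAPi_TAZi 0.17 and SRC with TEADi 0.47, all 3 turned in sign, and YES1 with YAPi was 0.45. With the controls of both sets only CSK stayed called with each siRNA.

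Within this set the CSK calls, and that of YES1 with YAPi, held whichever library was left out. SRC lost its call with YAPi, YAPi_TAZi and TEADi without either control library (adjusted p = 0.0253 and 0.0292, 0.0799 and 0.089, and 0.142 and 0.152 without replicates 1 and 2), and with TAZi without control replicate 2 (adjusted p = 0.0102). YES1 lost its call with TEADi without either control (adjusted p = 0.0163 and 0.0379) and with YAPi_TAZi without either control or without YAPi_TAZi replicate 2 (adjusted p = 0.0375, 0.0793 and 0.0123). LYN lost both calls whichever library was left out (adjusted p of at least 0.0483 with TAZi and 0.0419 with YAPi_TAZi).

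With the effective lengths as offsets SRC lost its call with every siRNA of the set, at log2 -1.03 with YAPi (adjusted p = 0.0163), -1.06 with TAZi (0.0104), -0.46 with YAPi_TAZi (0.353) and -0.99 with TEADi (0.0353). YES1 lost it with YAPi_TAZi (log2 0.47, adjusted p = 0.0742) and TEADi (log2 0.54, adjusted p = 0.0171), and LYN with TAZi and YAPi_TAZi (adjusted p = 0.0756 and 0.0699). The replicate block removed the calls of SRC with TEADi (adjusted p = 0.0239) and of LYN with TAZi and YAPi_TAZi (adjusted p = 0.264 and 0.0354), and TMM size factors that of LYN with TAZi (adjusted p = 0.123). Calls were also gained. FYN with TEADi was called with edgeR (log2 -0.91, adjusted p = 0.00178), TMM size factors (0.00316) and a mean count of at least 10 (0.00402). LYN with YAPi was called with edgeR (log2 0.67, adjusted p = 0.00308) and a mean count of at least 10 (0.00598). ESR1 with TEADi, at 4 counts or fewer per library, was called with effective length offsets (log2 6.98, adjusted p = 8.33e-05). edgeR gave 4 calls with YAPi and 4 with TEADi.

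In set 2 the same abundant RNAs took 0.00363% to 0.0112% of the counts in controls and knockdowns alike. DESeq2 called 0 of 5 genes with JUNBi, beside 3.41% of all genes, and 0 of 1 with STAT3i, beside 0.497%, with 1 and 0 at an unadjusted p under 0.05 and 0 with edgeR. CSK had normalized counts of 1203 and 1105 in the controls, 849 and 819 with JUNBi, and 998 and 1033 with STAT3i. With JUNBi its change was -0.47 (95% interval -0.86 to -0.08, adjusted p = 0.129). LYN with STAT3i, the gene and siRNA that stood out in ER-Src cells in TAM, was 0.38 (interval -0.40 to 1.16) and received no adjusted p.

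The regulators of the family were listed with the phosphatases that activate it (PTPN1, PTPN11, PTPRA and PTPRE), the CSK relative MATK, the membrane anchor of CSK (PAG1) and the ubiquitin ligases CBL, CBLB and CBLC. In TAM across siRNAs 3 of 8 tested rose and none fell, beside 12.6% of all genes called: PTPN1 (log2 0.32), PAG1 (log2 0.54) and PTPRE (log2 0.45), and the list had a median of 0.13 beside -0.02 over all genes tested. In STAT3i against Ctrli in TAM PTPRE fell by 1.17 on the log2 scale, the 1 call of 8 beside 8.22% of all genes, with a median of -0.36 beside 0.03. PAG1 rose with TAZi in ETH (log2 1.52), and CBLC fell by 1.11 with JUNBi in TAM. The more distant kinase PTK6 stood at 0.58 to 2.2 TPM in ER-Src cells.

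Src substrates split in TAM, with 4 of 20 higher and 4 lower, beside 12.6% of all genes called, and a median of 0.01 beside -0.02 over all genes. CAV1, the caveolar coat protein, fell by 0.94 on the log2 scale, TNS3, a tensin of focal adhesions, by 0.66 and EPS8 by 0.51, while ASAP1 rose by 0.36. With STAT3i in TAM 3 of 20 rose and 5 fell, beside 8.22% of all genes, with a median of -0.06 beside 0.03: SHC1 (log2 -1.06) and BCAR1 (log2 -1.67), adaptors of receptor and integrin signalling, were lower and CAV1 (log2 1.02) and EPS8 (log2 0.70) were higher. With JUNBi in TAM 5 of 19 fell and none rose, beside 6.9% of all genes, led by PXN (log2 -1.31), BCAR1 (log2 -1.19) and CDCP1 (log2 -0.97), with a median of -0.10. With YAPi, 1 of 19 rose and 1 fell in TAM, beside 10.7% of all genes, and 5 of 20 rose and 1 fell in ETH, beside 11.6%, where KHDRBS1, the RNA-binding substrate Sam68, fell by 0.83 and 0.84 in the 2 conditions.

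Of the genes tied to estrogen receptor function, 12 were partners and relatives of the receptor and 20 its response genes. Among the partners 2 of 11 rose in TAM, beside 12.6% of all genes called, the coactivator NCOA1 (log2 0.46) and the corepressor NRIP1 (log2 0.31), and none fell, with a median of -0.15 beside -0.02. PGR, the progesterone receptor and a classical receptor target, never exceeded 3 counts in ER-Src cells, and ESR2 ran from 0.04 to 0.23 TPM. Of 16 response genes tested in TAM, 2 rose and 3 fell, beside the same 12.6%: XBP1 (log2 0.32) was higher and STC2 (log2 -0.54), CCND1 (log2 -0.36) and MYC (log2 -0.28) were lower, with a median of 0.02. With YAPi 3 of 14 rose and 1 fell in TAM, beside 10.7% of all genes, and 4 of 13 rose and 1 fell in ETH, beside 11.6%. CA12 was higher by 2.18 and 2.11 and CCND1 by 1.29 and 1.28, and IGFBP4 fell by 1.83 and 1.72. With STAT3i in TAM 1 of 14 rose and 2 fell, beside 8.22% of all genes. AREG rose by 1.22, and CA12, among the lower, fell by 0.93.

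The genes most like each member over the 20 ER-Src libraries were found by Pearson's r of log2(TPM + 1) among 6872 genes with a mean of at least 5 TPM. For LYN they were the metal transporters SLC39A8 (r = 0.98) and SLC39A14 (r = 0.97) and the inflammatory caspase CASP4 (r = 0.97). For YES1 they were SRP72 (r = 0.98), PSMC6 (r = 0.97) and SYNCRIP (r = 0.97), for SRC GUSBP14 (r = 0.83), MYO1C (r = 0.82) and TKFC (r = 0.81), and for CSK LRP8 (r = 0.81), GTF3C2 (r = 0.79) and ITM2C (r = 0.78). FYN was most like WIPI1 (r = 0.74) and INPPL1 (r = 0.73), and the highest r of ESR1 with a named gene was that of HNRNPCP2 (r = 0.70). The libraries share depth and treatment, so these are descriptions over 20 points and no test was made.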

How the data were processed

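The 9 genes, the gene lists and the comparisons were chosen with earlier results of these data known. Per the labels and the methods, total RNA was made into libraries with a TruSeq Ribo Profile kit, sequenced on a HiSeq instrument, aligned with STAR to GENCODE annotation (hg38) and quantified with RSEM. The authors deposited 1 gene table per library with expected counts and TPM, and with the posterior mean TPM, credibility limits and isoform-weighted lengths of RSEM. Of 61471 identifiers the 60725 of Ensembl were used, 93.1% of which had a symbol.

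Expected counts were rounded and fitted with DESeq2 1.42.0 in R 4.3.3 (default size factors and filtering, Wald test), each comparison with its own libraries, and p-values were adjusted over all genes by Benjamini-Hochberg. A gene was called at an adjusted p under 0.01. Intervals are 95% (1.96 SE). The TAM effect across siRNAs has siRNA as a term. Genes that DESeq2 left without an adjusted p were not counted as tested. Normalized counts were scaled by size factors within each library set. Depth limits the set 1 knockdowns most, and intervals cover the spread between libraries. The fits were tested on simulated counts.

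Named genes of lists are up to 4 calls per list and comparison with the smallest adjusted p, and some list genes are not reported here. Same-numbered ER-Src libraries deviated together between ETH and TAM in each siRNA (r = 0.152 to 0.604 over genes with a mean of at least 100 counts). The numbers were therefore taken as pairs in the TAM comparisons, although no label pairs them. Alternatives were edgeR 4.0.16, TMM size factors, a mean count of at least 10, effective length offsets, the replicate block, 1 fit over all groups, other references and leaving out each library. RefSeq windows served for motifs. SRC and LYN had no window. No amino acid sequence was used here.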

Additional observations from a re-analysis of the deposited data

Results flagged for a closer look

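The following values were singled out because every library moved 1 way in one group and the opposite way in another. The share of all genes that meet the same rule was not computed, so the list is a description without a background. YES1 changed in TAM by -0.13 with YAPi and by 0.33 with TAZi on the log2 scale. FYN changed in TAM by -0.11 with TAZi, by 0.73 with STAT3i and by -0.48 with JUNBi. FGR, with at most 53.3 normalized counts in any library, changed in TAM by 0.98 with YAPi, by -0.83 with STAT3i and by 0.64 with JUNBi. The TAM change with STAT3i against that with JUNBi was fitted as an interaction, an alternative chosen after seeing the data, and gave 1.20 for FYN (SE 0.55, adjusted p = 0.456) and -1.49 for FGR (SE 1.61, adjusted p = 1.00) in DESeq2, neither of which passed.

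The other differences between siRNAs, and those between the lines, were not tested. Between the lines, YES1 with YAPi was -0.23 in ER-Src TAM and 1.06 in MDA-MB-231, and YES1 with TAZi was -0.093 in ER-Src TAM, -0.35 in ER-Src ETH and 0.20 in MDA-MB-231. FYN with YAPi was 0.47 in ER-Src ETH and -0.58 in MDA-MB-231. The MDA-MB-231 values come from the set in which library type and knockdown cannot be told apart.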

How the results depend on the processing

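The TAM calls of LYN across siRNAs and with Ctrli, YAPi and TAZi kept their direction and their side of the threshold under every alternative run. Of the log2 fold changes recomputed for single genes, 2132 kept their side of the threshold, 79 lost a call, 21 gained one and 5 reversed. The 2132 did not all keep their direction. ESR1 with TAZi in ETH, not called, was -0.19 and became 0.02 with all other siRNAs as the reference. Counts of called genes changed as follows. edgeR gave 0 calls in place of 1 for TAM in JUNBi and 1 in place of 2 for YAPi in ETH. 1 fit over all groups gave 1 for YAPi in ETH and 1, FYN (adjusted p = 0.00894), for TAZi in ETH. Effective length offsets gave 2 for TAZi in ETH, 1 each for the YAPi and TAZi interactions, which was ESR1 (log2 -1.13 and -1.29), and 1 each for TAZi and YAPi_TAZi in MDA-MB-231. They reversed ESR1 with YAPi in ETH (log2 0.73) and with TAZi in ETH (log2 0.85). The lengths assigned to ESR1 in Ctrli ETH enter these offsets, and why they differ was not tested.

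The STAT3i interaction gave 1 call, LYN, in place of 0 with a mean count of at least 10 (adjusted p = 0.0059), with 1 fit over all groups (7.05e-06) and with the replicate block (0.00231), while edgeR (0.0227), TMM size factors (0.0172) and length offsets (0.0536) gave 0. Further alternatives were chosen after seeing the data. Of these, filtering aimed at 0.01 (adjusted p = 0.00893), JUNBi as the reference (0.00776) and all other siRNAs as the reference (1.1e-13) also gave 1. With all other siRNAs as the reference STAT3i in TAM gave 2 calls and YAPi in ETH 0, where FRK had an adjusted p of 0.0159.

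Each knockdown comparison has 2 numbers, and nothing in the labels pairs them. Same-numbered libraries deviated together in ETH (r = 0.186 to 0.410 for the 4 siRNAs, which share the Ctrli libraries) but not throughout in TAM (r = -0.0557 to 0.12) or in set 1 (r = -0.0781 to -0.0405). With the replicate block YAPi gave 0 calls in TAM in place of 1 and 0 in ETH in place of 2, and the other counts moved by at most 1.5 times apart from the STAT3i interaction. It changed no call of the TAM comparisons, where the numbers were taken as pairs. No paired analysis was possible for set 2 because controls and knockdowns share no numbers.

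In MDA-MB-231 set 1 the controls of both sets gave 1 call for each siRNA in place of 3 or 4. The other knockdowns as reference, with the replicate block, gave 0 for each and reversed CSK with TAZi (log2 0.093), SRC with YAPi_TAZi (log2 0.17) and SRC with TEADi (log2 0.47).

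Leaving out each library gave 1 to 2 calls for TAM across siRNAs, 0 to 1 for TAM in JUNBi and for YAPi, TAZi and JUNBi in TAM, and 0 to 0 for STAT3i in TAM and YAPi in ETH, where each call was lost. In MDA-MB-231 it gave 1 to 2 for TAZi and 1 to 3 for YAPi_TAZi and TEADi. In these fits the lone library of an arm is assumed to vary like the others. The set 1 knockdowns, with at most 2784605 counts, limit what can be seen of FRK, FGR and LCK.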
